A study of Mus musculus with 6 samples.

Results

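The 31 genes described here are a list of genes for the synthesis, uptake and regulation of cholesterol, taken by symbol from 35275 Ensembl genes in the deposited table. By role, 8 act from acetyl units to the isoprenoids, 3 from squalene to lanosterol and 8 from lanosterol to cholesterol. Another 5 control SREBP, and 7 move, store, sense or export sterols. All 31 were found, and 30 passed the filter of a mean of at least 0.5 FPKM (fragments per kilobase of transcript, scaled to library depth) and were tested. The remaining gene was Mylip, which encodes the LXR-induced ubiquitin ligase that degrades lipoprotein receptors. Mylip was listed at 0 in 5 of the 6 libraries and at 0.0192 FPKM in the other.

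Cholesterol is built from acetyl units through mevalonate, isoprenoid, squalene and lanosterol steps, and every step has its own enzyme. The sterol regulatory element binding proteins (SREBPs) are transcription factors held in the endoplasmic reticulum membrane. When sterols are low, SCAP escorts them to the Golgi for cleavage. When sterols are high, INSIG proteins retain the SCAP complex, and the LXR receptors then turn on efflux and limit uptake of cholesterol. Tumour cells draw on this pathway for membranes and for the isoprenoid anchors of small GTPases.

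ID8-KMF, the cell line used, is a C57Bl6/J mouse ovarian tumour line derived from ID8 by passage in mice. The 3 knockout libraries came from Rgnef -/- cells, and the 3 GFP-Rgnef libraries from Rgnef -/- cells carrying a lentivirus that expresses GFP-tagged Rgnef. Both were harvested subconfluent from dishes seeded with 0.2% Matrigel, and all 6 libraries share the loss of Rgnef (Arhgef28), a guanine nucleotide exchange factor. The virus and the tag cannot be told apart from Rgnef itself. The labels do not state that replicates were separate cultures, so p-values measure a spread between libraries that may be purely technical. Unedited parental cells were not analysed here.

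Arhgef28 stood at 0.1198 ± 0.0123 FPKM in knockout libraries and at 52.7 ± 3.93 FPKM in GFP-Rgnef libraries (SD, n = 3 each). Depths implied by the FPKM values were 15898965 to 17977069 reads. Of 9 markers of ovarian surface and mesothelial cells, 6 were above 1 FPKM in every library, among them Wt1, Msln and Krt19. Krt7, Lrrn4 and Pax8 stayed below 1 FPKM. Among the 6, Krt18 fell to 224.4 ± 9.21 FPKM in knockout libraries, against 319.8 ± 29.8 FPKM in GFP-Rgnef libraries (limma adjusted p = 0.00625). Upk3b had 319.1, 317.8 and 116.3 FPKM in knockout libraries, against 119.5, 114.7 and 42.6 FPKM in GFP-Rgnef libraries (limma adjusted p = 0.0878). The part of these markers in the sterol results was not tested. The summed leukocyte list lay at 2.52 to 3.82 FPKM in knockout and 2.18 to 3.49 FPKM in GFP-Rgnef libraries. Of its 7 markers, 1 was above 1 FPKM in every library. It was Cd68, at 2.20 to 3.81 FPKM in knockout and 2.17 to 3.44 FPKM in GFP-Rgnef libraries. The other 6 were below 1 FPKM, with Cd3e and Adgre1 at 0 in all. The adipocyte list reached at most 0.0687 FPKM. Of 5 endothelial markers 4 were below 1 FPKM and Tek was at 85.7 to 145.8 FPKM in knockout and 95.6 to 108.2 FPKM in GFP-Rgnef libraries. The libraries numbered 3 stood apart: across the 11500 genes tested, the deviations of knockout 3 and GFP-Rgnef 3 from their group means correlated at 0.55. The pairs of a library 3 with another number lay at -0.52 to -0.20. Deviations within a group sum to 0 for each gene, so these negative values are in part a consequence of the 0.55. Genes of chromosomes 7 and 9 were also higher together in knockout libraries, with a median log2 difference of 0.27 over 1458 genes, against -0.04 over the 10042 genes elsewhere.

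To show the regulatory letters that go with these genes, the RefSeq promoter windows (GRCm38.p6, 250 bases before to 50 after the start) of 4 members are printed. They are Hmgcs1, which holds a textbook sterol regulatory element, and Acat2, Idi1 and Cyp51, the called members outside chromosomes 7 and 9. Each runs 5′ to 3′ on the gene's own strand. Capitals mark the sterol regulatory element TCACNCCAC, the CCAAT box bound by NF-Y, the GC box GGGCGG bound by SP1 and the E-box CACGTG, on either strand. None of the matches shown overlaps another, and none of the 4 windows holds the E-box.
Hmgcs1, chr13:119690101-119690400, plus strand: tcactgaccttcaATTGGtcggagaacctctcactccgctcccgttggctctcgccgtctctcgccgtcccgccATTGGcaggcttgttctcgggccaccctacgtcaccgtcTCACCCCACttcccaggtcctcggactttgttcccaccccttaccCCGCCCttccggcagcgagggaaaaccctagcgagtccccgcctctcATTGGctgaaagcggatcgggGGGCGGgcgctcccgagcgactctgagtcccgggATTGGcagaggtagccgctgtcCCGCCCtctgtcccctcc
Acat2, chr17:12960676-12960975, minus strand: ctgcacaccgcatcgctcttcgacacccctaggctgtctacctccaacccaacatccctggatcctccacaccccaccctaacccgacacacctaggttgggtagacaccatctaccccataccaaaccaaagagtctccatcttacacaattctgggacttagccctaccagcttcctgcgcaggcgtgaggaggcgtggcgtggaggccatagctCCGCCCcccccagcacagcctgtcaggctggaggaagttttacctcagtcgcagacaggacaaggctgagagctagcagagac
Idi1, chr13:8885356-8885655, plus strand: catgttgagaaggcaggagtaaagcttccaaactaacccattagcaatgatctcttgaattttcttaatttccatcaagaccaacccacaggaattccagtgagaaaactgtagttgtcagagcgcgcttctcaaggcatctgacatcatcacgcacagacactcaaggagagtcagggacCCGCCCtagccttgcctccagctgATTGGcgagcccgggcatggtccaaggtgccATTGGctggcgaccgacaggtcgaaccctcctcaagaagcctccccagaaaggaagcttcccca
Cyp51, chr5:4104648-4104947, minus strand: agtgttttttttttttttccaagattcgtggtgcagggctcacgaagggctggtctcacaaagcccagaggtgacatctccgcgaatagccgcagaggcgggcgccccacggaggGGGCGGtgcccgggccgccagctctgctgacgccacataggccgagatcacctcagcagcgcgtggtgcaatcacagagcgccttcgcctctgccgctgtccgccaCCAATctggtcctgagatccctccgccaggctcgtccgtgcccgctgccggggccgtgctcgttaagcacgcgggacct

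Hmgcs1 carried the sterol element 137 bases before its start, with CCAAT boxes 45, 176 and 237 bases before it and 11 bases after it. Idi1 had CCAAT boxes 14 and 45 bases before its start, Cyp51 had 1 at 29 bases, and Acat2 had only a GC box, at 33 bases. Of the 31 members, 26 had at least 1 window in the table. The exact letters of the sterol element were in a window of 1 of these 26 (3.85%), against 1.25% of 8791 tested genes that have a window and 1.24% of all 32851 windows. CCAAT was in a window of 22 of 26 members (84.6%), against 43.1% of the tested genes and 37.4% of all windows. The GC box was in 23 of 26 (88.5%), against 71.6% of tested genes and 35.7% of all windows, and the E-box in 6 of 26 (23.1%), against 12.1% and 7.15%. Counted by window, as the shares of all windows are, 1 of 34 member windows held the sterol element (2.94%) and 23 CCAAT (67.6%). The GC box was in 27 of the 34 (79.4%) and the E-box in 7 (20.6%). Among the 6 members that rose, 4 had CCAAT and 0 the sterol element, and among the 20 others with a window 18 had CCAAT and 1 the sterol element. These are matches of letters in a short window and not shown binding sites.

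Of the 30 tested members, 6 rose in the knockout libraries and 0 fell (limma, adjusted p below 0.05 over all genes tested). The 6 were Acat2, Idi1, Cyp51, Sc5d, Dhcr7 and Scap, with ratios of 1.23 to 1.502. That is 20% of the members, where 8.04% of all 11500 genes rose and 5.34% fell. At an unadjusted p below 0.05, 9 members were higher and 0 lower, where 14.9% of all genes were higher and 13.5% lower. Fitted with voom on reads recovered from the FPKM values, 6 members were called higher and 0 lower, where 8.64% of all genes were higher and 5.02% lower. The difference was positive for 22 members and negative for 8, with a median of 0.13 on the log2(FPKM + 1) scale, against -0.02 over all genes tested. In 9 members (30%) all knockout libraries lay above all GFP-Rgnef libraries, against 16.7% of all genes, and in 0 all lay below, against 16.7%. In bulk RNA, fewer cells of a type and less RNA per cell cannot be told apart.

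Position in the genome divided the 6. Of the 4 members on chromosomes 7 and 9, 3 rose (Sc5d, Dhcr7 and Scap), where 32.2% of all tested genes on these chromosomes rose. Of the 26 members elsewhere 3 rose (11.5%), where 4.53% of all other genes rose. With each chromosome's median deviation removed from each library, 2 members remained called, Acat2 and Cyp51, where 4.3% of all genes were called higher and 3.37% lower. The number of members called higher was 3, 2 and 6 of 30 without knockout 1, 2 and 3, where 5.15%, 4.28% and 7.39% of all genes were. It was 2, 1 and 3 of 30 without GFP-Rgnef 1, 2 and 3, where 4.45%, 3.96% and 7.3% of all genes were. The count of 1 without GFP-Rgnef 2 is no larger a share than that of all genes. Of the 6 called without knockout 3, 3 were among those named above. With no filter on low values 2 members were called higher, against 3.69% of all genes, and without limma's trend 3, against 7.43%, with Acat2 and Cyp51 in both. The plot of differences along the pathway shows all 30 genes.

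**Figure D1:**
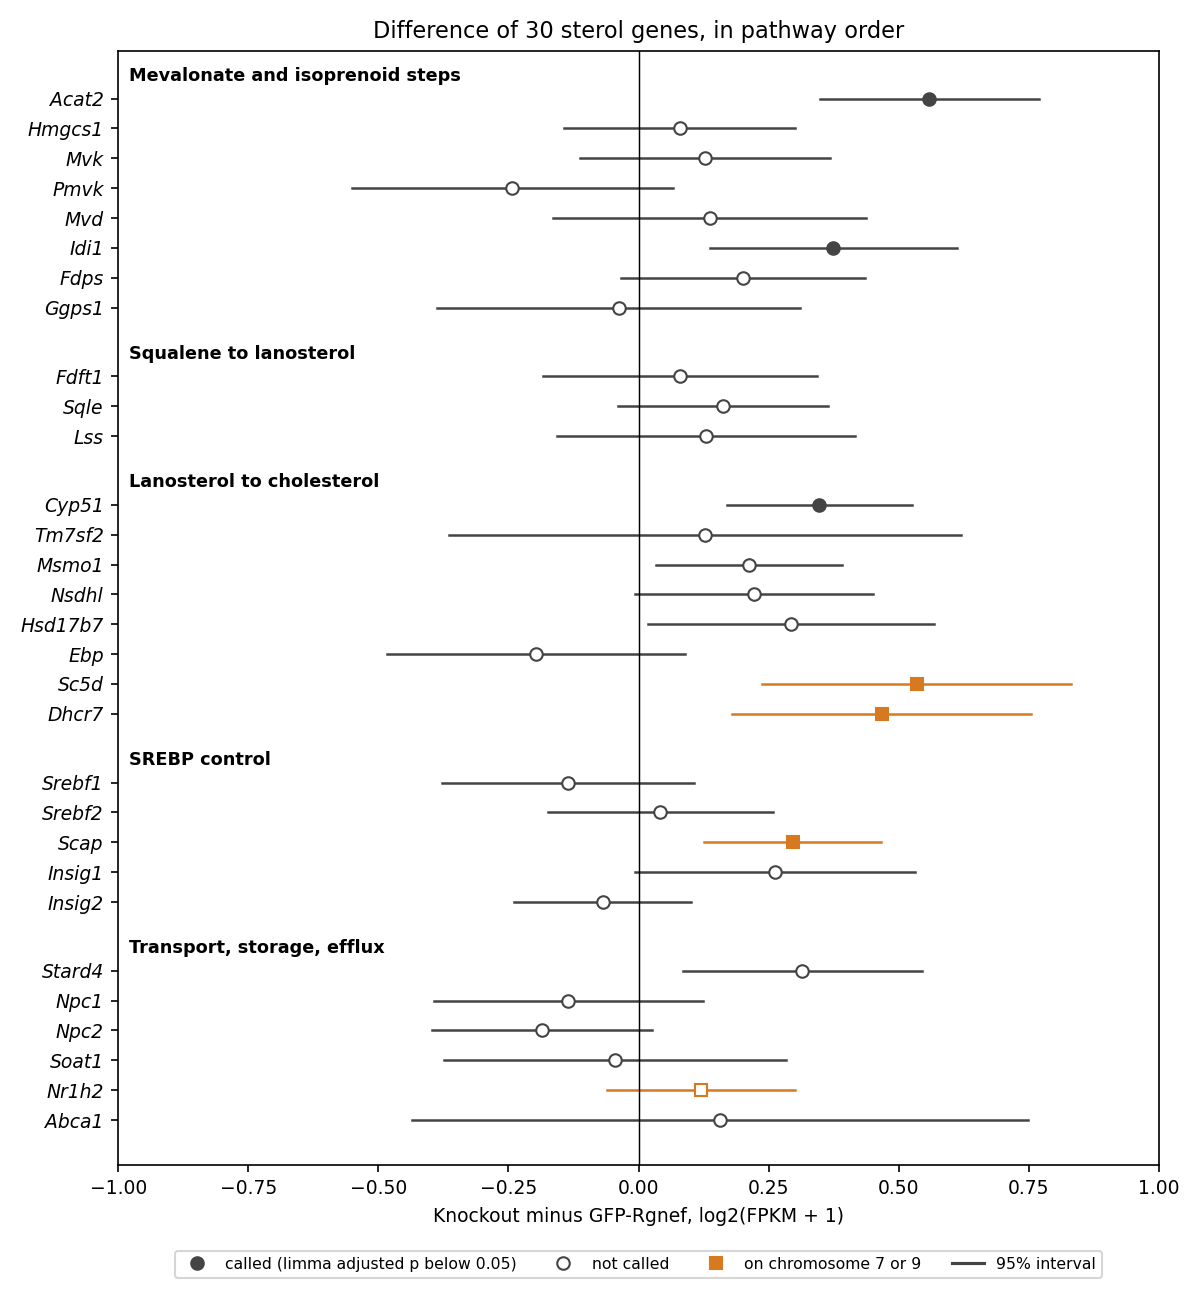
Knockout minus GFP-Rgnef difference on the log2(FPKM + 1) scale for the 30 tested members, grouped by role. Points are limma estimates from 3 against 3 libraries, lines are 95% intervals, filled points were called, and squares lie on chromosome 7 or 9. The 6 called genes sit between 0.30 and 0.56, and the others lie between -0.24 and 0.31. The intervals of Msmo1, Hsd17b7 and Stard4 lie above 0 without a call after adjustment.

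The early enzymes were led by Acat2, the cytosolic thiolase that joins 2 acetyl-CoA molecules. Acat2 (ENSMUSG00000023832, chromosome 17, 12942890 to 12960747, minus strand) had 30.8, 32.8 and 26.4 FPKM in knockout libraries, against 20.7, 20.04 and 19.1 FPKM in GFP-Rgnef libraries. Every knockout library lay above every GFP-Rgnef library, although knockout 3 was the lowest of its group. The means were 29.96 ± 3.26 and 19.9 ± 0.819 FPKM (SD, n = 3 each), a difference of 0.56 (SE 0.092, limma adjusted p = 0.00726). It was the only member called without each library in turn, with limma adjusted p up to 0.0353. Its near copy Acat3 stood at 0.288 ± 0.0993 FPKM in knockout and 0.556 ± 0.311 FPKM in GFP-Rgnef libraries. How reads that match both genes were assigned is not given.

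Hmgcs1, the synthase of the next step, whose promoter carries the sterol element printed above, did not pass the test. It had 51.7, 53.8 and 49.2 FPKM in knockout libraries, against 42.6, 49.3 and 55.1 FPKM in GFP-Rgnef libraries. The groups overlap, and the highest single value was GFP-Rgnef 3. The difference was 0.08, with a 95% interval from -0.14 to 0.30 (limma adjusted p = 0.661).

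Idi1 (ENSMUSG00000058258, chromosome 13, 8885501 to 8892451, plus strand), the isomerase that makes the reactive isoprenoid unit, rose to 81.2 ± 12.05 FPKM in knockout libraries, against 61.98 ± 3.13 FPKM in GFP-Rgnef libraries (SD, n = 3 each). Its values were 72.2, 94.9 and 76.4 FPKM in knockout libraries and 60.2, 60.2 and 65.6 FPKM in GFP-Rgnef libraries. Knockout 2 stood highest, and the groups do not overlap. The difference of 0.37 (SE 0.104) just passed the test (limma adjusted p = 0.0492). The call was lost without any 1 library other than knockout 1, with limma adjusted p up to 0.155. With chromosome medians removed the difference was 0.38, as large as before, with limma adjusted p = 0.0534. Exons of Idi1 share 323 bases with the opposite-strand gene Gm48574, which was not analysed here. The related gene Idi2 was at 0.0530 FPKM or less in every library.

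The other 5 enzymes of this stretch did not pass. Mvk and Pmvk, the kinases that phosphorylate mevalonate, differed by 0.13 and -0.24. Mvd, the decarboxylase, differed by 0.14, and Fdps, the farnesyl diphosphate synthase, by 0.20. Ggps1, which makes the geranylgeranyl unit used as a membrane anchor, differed by -0.04, with 13.4 ± 2.39 FPKM in knockout and 13.8 ± 2.32 FPKM in GFP-Rgnef libraries (SD, n = 3 each). Its exons share 257 bases with Arid4b on the opposite strand. The handling of strand is not given, so reads from such shared bases could belong to either gene.

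None of the 3 enzymes from squalene to lanosterol passed the test. At an unadjusted p below 0.05 the count was also 0, where 14.9% of all genes were higher and 13.5% lower. Sqle, the epoxidase that puts oxygen on squalene, had 44.5, 47.7 and 39.2 FPKM in knockout libraries, against 40.9, 39.4 and 36.6 FPKM in GFP-Rgnef libraries. Knockout 1 and 2 lay above all GFP-Rgnef libraries and knockout 3 below the highest of them. The difference was 0.16, with a 95% interval from -0.04 to 0.36. Lss, the lanosterol cyclase, had 19.8, 19.4 and 14.2 FPKM in knockout libraries, against 16.8, 16.1 and 15.2 FPKM in GFP-Rgnef libraries. Here knockout 3 was the lowest of all 6 libraries. Fdft1, the squalene synthase, was also lowest in knockout 3, at 9.92 FPKM, and its exons share 774 bases with Ctsb on the opposite strand.

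Of the 8 late enzymes, from lanosterol to cholesterol, 3 rose (37.5%), where 8.04% of all genes rose. Of these 3, Sc5d and Dhcr7 lie on chromosomes 9 and 7, where 32.2% of all tested genes rose. Cyp51 (ENSMUSG00000001467, chromosome 5, 4081145 to 4104746, minus strand), the lanosterol demethylase, had 62.7, 69.4 and 58.3 FPKM in knockout libraries, against 48.1, 50.1 and 50.4 FPKM in GFP-Rgnef libraries. All knockout values lay above all GFP-Rgnef values. The means were 63.5 ± 5.60 and 49.6 ± 1.26 FPKM (SD, n = 3 each), a difference of 0.35 (SE 0.077, limma adjusted p = 0.0233). The call was lost without knockout 1, knockout 2, GFP-Rgnef 1 or GFP-Rgnef 2, with limma adjusted p up to 0.0868. Exons of Cyp51 share 166 bases with Akap9 on the opposite strand, which had 34.4 ± 5.19 FPKM in knockout and 30.1 ± 1.44 FPKM in GFP-Rgnef libraries and was not called.

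Sc5d (ENSMUSG00000032018), a sterol desaturase, lies on chromosome 9, from 42251595 to 42264256, minus strand. It had 20.6, 26.8 and 24.7 FPKM in knockout libraries, against 14.4, 15.4 and 19.2 FPKM in GFP-Rgnef libraries, without overlap. The difference was 0.53 (SE 0.129, limma adjusted p = 0.0306), and 0.24 with limma adjusted p = 0.31 after the chromosome's median deviation was removed. The call was lost without knockout 2, knockout 3, GFP-Rgnef 1 or GFP-Rgnef 2, with limma adjusted p up to 0.117.

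Dhcr7 (ENSMUSG00000058454), the reductase that turns 7-dehydrocholesterol into cholesterol, lies on chromosome 7, from 143823145 to 143848410, plus strand. It had 37.4, 36.1 and 30.99 FPKM in knockout libraries, against 28.2, 26.4 and 20.6 FPKM in GFP-Rgnef libraries. The library numbered 3 was the lowest of its group on both sides, and the groups do not overlap. The difference was 0.47 (SE 0.125, limma adjusted p = 0.044), and 0.22 with limma adjusted p = 0.328 after removal of the chromosome median. Without knockout 1, knockout 2, GFP-Rgnef 2 or GFP-Rgnef 3 the call was lost, with limma adjusted p up to 0.145.

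**Figure D2:**
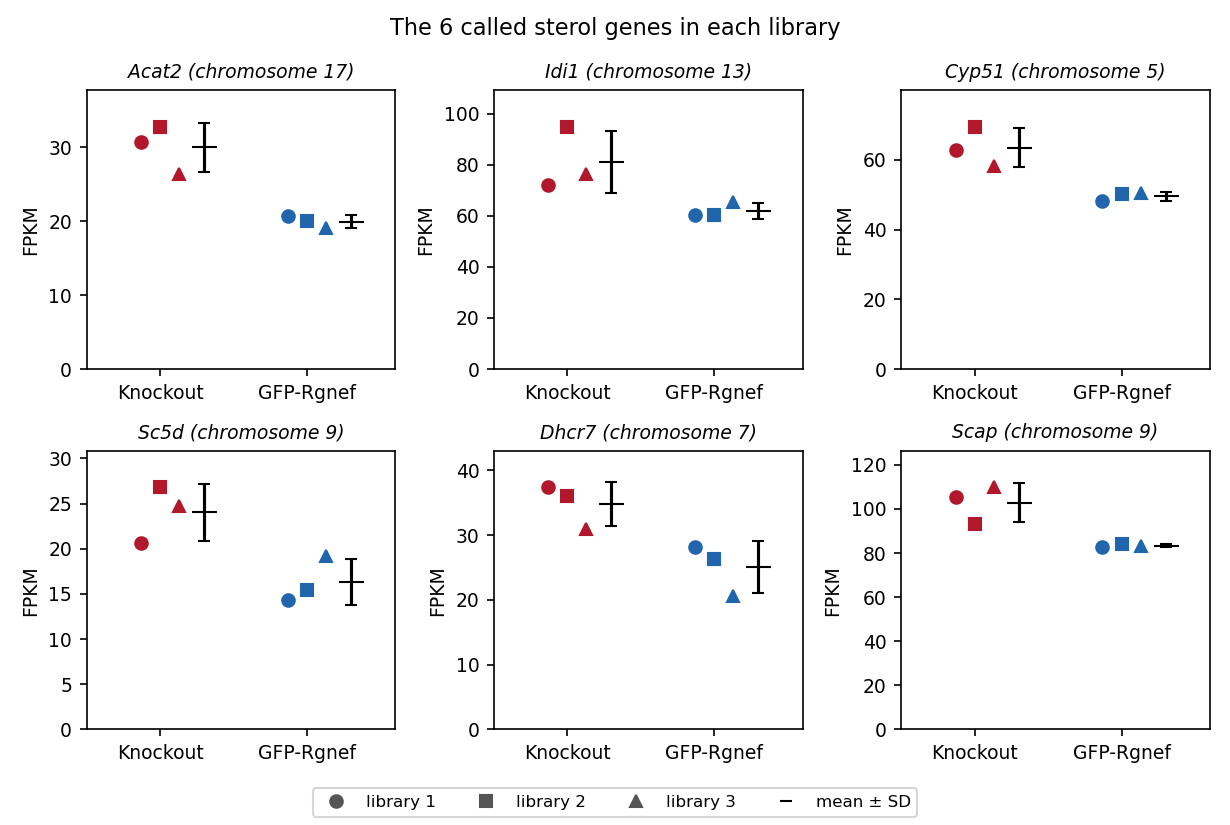
FPKM of the 6 called members in each library, knockout left of GFP-Rgnef, with the library number given by the symbol and the mean ± SD (n = 3) beside each group. In all 6 panels the 3 knockout libraries lie above the 3 GFP-Rgnef libraries. The smallest gaps are those of Sc5d, with 20.6 FPKM in knockout 1 against 19.2 FPKM in GFP-Rgnef 3, and Dhcr7, with 30.99 FPKM in knockout 3 against 28.2 FPKM in GFP-Rgnef 1.

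Of the other late enzymes, Msmo1, the sterol C4 methyl oxidase, had 23.4, 27.3 and 25.3 FPKM in knockout libraries, against 21.4, 21.5 and 22.2 FPKM in GFP-Rgnef libraries. These do not overlap, but the difference of 0.21 did not pass (limma adjusted p = 0.116). Nsdhl and Hsd17b7, which with Msmo1 remove the C4 methyl groups, differed by 0.22 and 0.29 (limma adjusted p = 0.187 and 0.152). Ebp, the sterol isomerase, had 44.6, 52.5 and 35.98 FPKM in knockout libraries, against 49.9, 52.8 and 48.5 FPKM in GFP-Rgnef libraries. It was the one late enzyme with a negative difference (-0.20), and knockout 3 was its lowest library. Tm7sf2, the sterol C14 reductase, rested on 10 to 32 reads per library and shares 532 exon bases with Vps51, so its difference of 0.13 (95% interval -0.36 to 0.62) is imprecise.

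Among the 5 SREBP regulators only Scap passed the test (20%), where 8.04% of all genes rose. Scap (ENSMUSG00000032485) lies on chromosome 9, from 110333288 to 110384950, plus strand. It had 105.6, 93.04 and 109.8 FPKM in knockout libraries, against 82.7, 84.2 and 83.1 FPKM in GFP-Rgnef libraries. The groups do not overlap, and the GFP-Rgnef values are close together. The difference was 0.30 (SE 0.074, limma adjusted p = 0.035) and 0.00 after removal of the chromosome median (limma adjusted p = 0.978). Its call was lost without any 1 library other than knockout 2, with limma adjusted p up to 0.111.

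The transcription factor genes themselves did not pass. Srebf2, which encodes the SREBP that mainly drives cholesterol genes, averaged 50.7 ± 4.63 FPKM in knockout and 49.2 ± 4.58 FPKM in GFP-Rgnef libraries (SD, n = 3 each), with a 95% interval of the difference from -0.17 to 0.26. Srebf1, whose product mainly drives fatty acid genes, averaged 82.7 ± 9.41 FPKM in knockout and 90.9 ± 9.94 FPKM in GFP-Rgnef libraries, and its exons share 109 bases with Rai1 on the opposite strand. Insig2 had 102.7, 110.1 and 95.1 FPKM in knockout libraries, against 106.1, 103.2 and 113.4 FPKM in GFP-Rgnef libraries, which overlap. Insig1, the INSIG gene that SREBP itself induces, had 24.5, 24.9 and 18.9 FPKM in knockout libraries, against 18.4, 20.4 and 17.4 FPKM in GFP-Rgnef libraries. Knockout 1 and 2 were the highest of the 6, and knockout 3 lay among the GFP-Rgnef values. The difference of Insig1 was 0.26 (limma adjusted p = 0.188).

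None of the 6 tested genes for transport, storage, sensing and efflux passed. At an unadjusted p below 0.05, 0 were lower, where 13.5% of all genes were, and 1 was higher, where 14.9% were. That one was Stard4, a cytosolic sterol carrier induced by SREBP, with 27.03, 27.2 and 21.9 FPKM in knockout libraries, against 18.7, 20.6 and 21.1 FPKM in GFP-Rgnef libraries. The groups do not overlap, knockout 3 again being the lowest of its group, and the difference was 0.31 (limma adjusted p = 0.0769). Npc1 and Npc2, which hand cholesterol out of lysosomes, differed by -0.13 and -0.18. Exons of Npc1 share 511 bases with Rmc1 on the opposite strand, which had 12.4 ± 0.640 FPKM in knockout and 16.02 ± 0.691 FPKM in GFP-Rgnef libraries.

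Soat1, which esterifies cholesterol for storage, had 74.4, 67.2 and 94.2 FPKM in knockout libraries, against 67.5, 85.8 and 89.4 FPKM in GFP-Rgnef libraries. The library numbered 3 was the highest on both sides, and the groups overlap. Nr1h2 (LXR beta), on chromosome 7, had 45.8, 39.99 and 42.2 FPKM in knockout libraries, against 38.3, 41.9 and 37.3 FPKM in GFP-Rgnef libraries. These overlap too, and its difference of 0.12 became -0.13 after removal of the chromosome median. Abca1, the LXR-induced cholesterol exporter, had 1.70, 0.760 and 0.541 FPKM in knockout libraries, against 0.703, 1.31 and 0.346 FPKM in GFP-Rgnef libraries. It varied several-fold within each group, from 33 to 169 reads, and its 95% interval ran from -0.44 to 0.75.

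**Figure D3:**
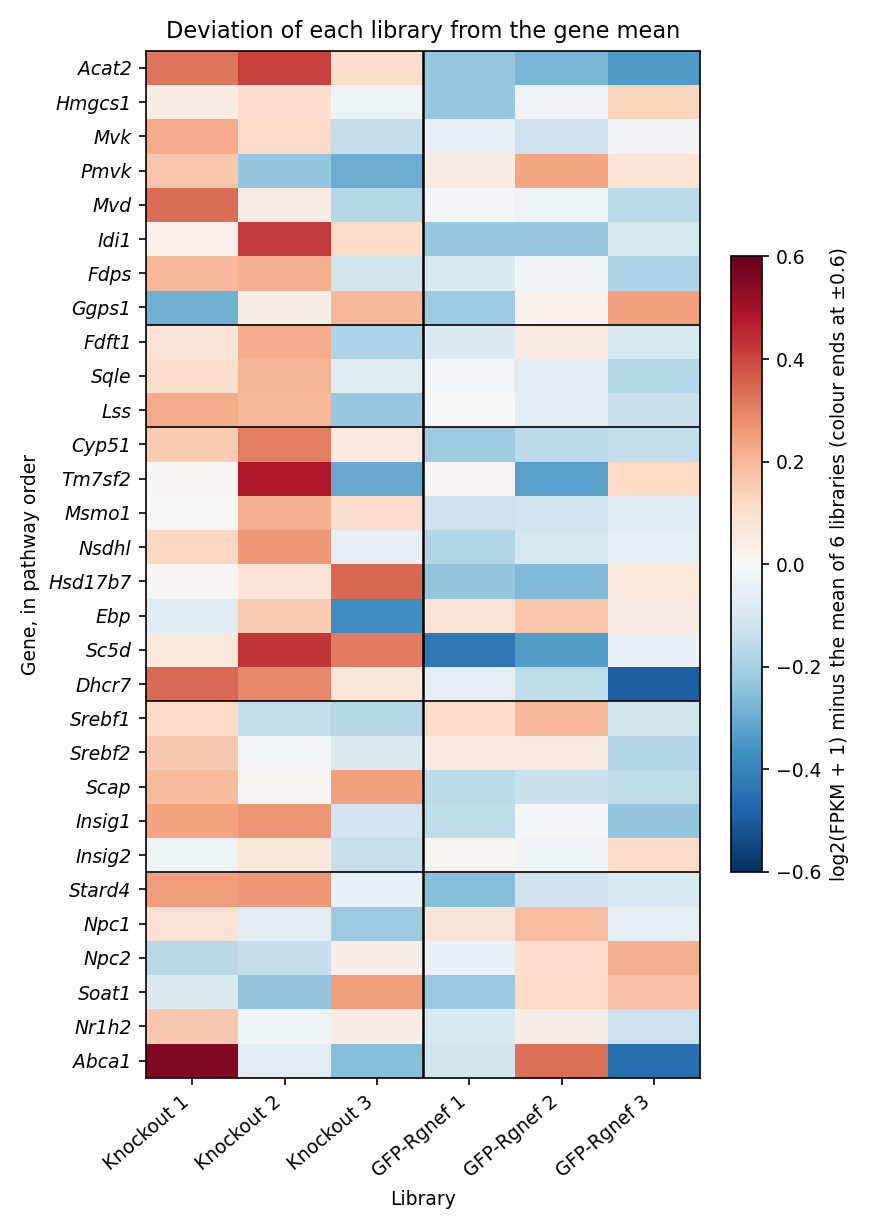
Deviation of each library from the mean of the 6 libraries, on the log2(FPKM + 1) scale, for the 30 tested members in pathway order, knockout libraries left of GFP-Rgnef libraries and horizontal lines between roles. Knockout 1 and 2 are mostly above the gene mean (24 and 22 of 30 members), while knockout 3 is above it for 12.

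The libraries numbered 3 gave another picture of the synthesis enzymes than libraries 1 and 2. Knockout 3 was the lowest of the 3 knockout libraries for 21 of 30 members (70%), against 34.6% of all genes tested. GFP-Rgnef 3 was the lowest of its group for 14 of 30 (46.7%), against 39.9% of all genes. The median deviation of the members from their own means was 0.12, 0.14 and -0.06 in knockout libraries 1, 2 and 3, against -0.09, -0.03 and -0.09 in GFP-Rgnef libraries 1, 2 and 3. Krt19, a marker of the surface epithelium, was at 678.7 FPKM in knockout 3, against 1309 and 1268 FPKM in the other knockout libraries, and at 793.7 FPKM in GFP-Rgnef 3, against 1412 and 1359 FPKM. Its part in the sterol values was not tested.

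Between libraries 1 and 2 of the groups the median member difference was 0.22, and between the libraries numbered 3 it was 0.06. Over all genes tested these medians were -0.01 and -0.02. The early enzymes had a median of 0.23 in libraries 1 and 2 and -0.03 in the libraries numbered 3. For the 3 squalene enzymes the medians were 0.19 and -0.09, and for the late enzymes 0.37 and 0.19. Acat2 differed by 0.62 and 0.45, Idi1 by 0.45 and 0.22, and Cyp51 by 0.42 and 0.21. Stard4 differed by 0.45 and 0.05 and Nsdhl by 0.33 and 0.00. The 3 called members on chromosomes 7 and 9 differed by 0.63 and 0.35 for Sc5d, 0.42 and 0.57 for Dhcr7, and 0.25 and 0.40 for Scap. The groups of the 6 called members do not overlap, so both differences of each had to be positive. With only libraries 1 and 2 fitted, 11 members were called higher, where 11.1% of all genes were, and 0 lower, where 9.11% of all genes were. These were the 6 named above with Fdps, Nsdhl, Hsd17b7, Insig1 and Stard4. The pair numbered 3 has 1 library per group and allows no test.

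**Figure D4:**
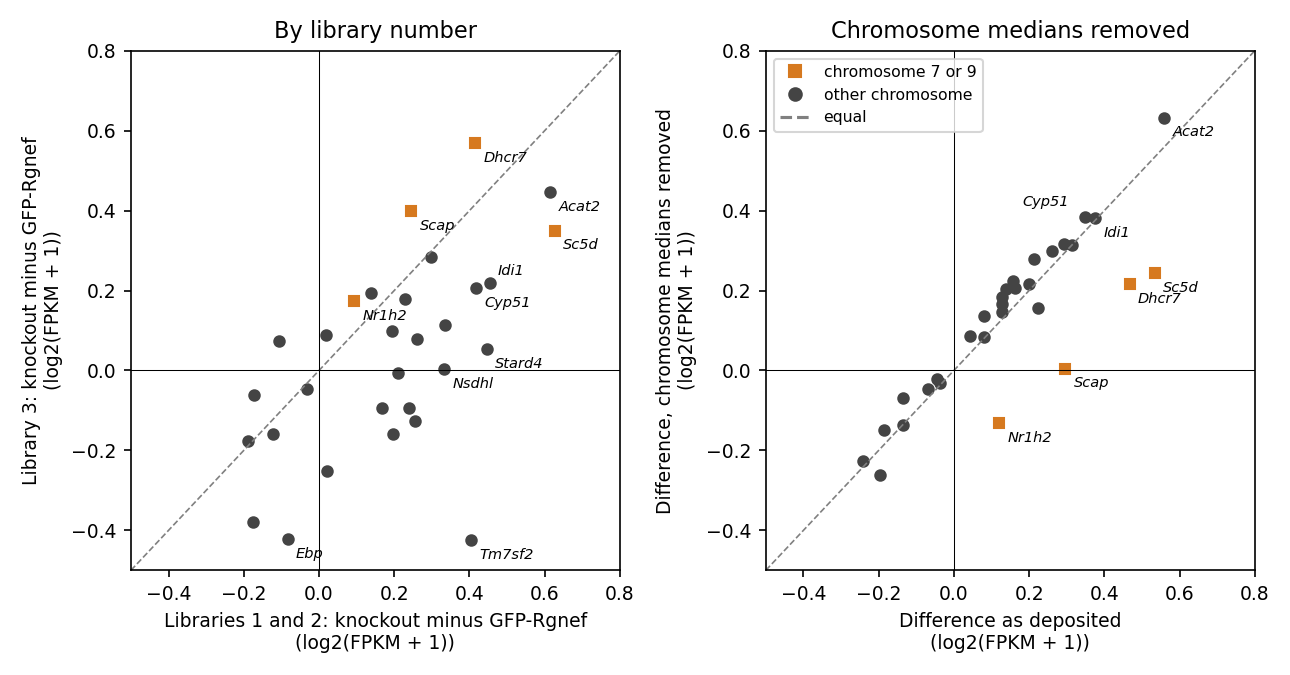
Left, the knockout minus GFP-Rgnef difference of each of the 30 members in the libraries numbered 3 (vertical) against the mean difference in libraries 1 and 2 (horizontal). Right, the difference with chromosome medians removed (vertical) against the difference as deposited (horizontal). All axes are on the log2(FPKM + 1) scale and squares lie on chromosome 7 or 9. Left, 22 of 30 points lie under the line of equality, as would 5753 of all 11500 genes tested. Of the 4 squares, 1 lies under it. Right, the 4 squares lie under the line of equality, with Scap at 0.00. The median differences of chromosomes 7 and 9 were 0.24 and 0.28, so removal of the medians moves every gene there down.

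Other lists around the pathway did not share one direction. In fatty acid synthesis 16 genes were tested: 2 rose (12.5%), 2 fell (12.5%), and the median difference was 0.05. Over all genes tested 8.04% rose and 5.34% fell, with a median of -0.02. Elovl5, a fatty acid elongase on chromosome 9, rose to 108.7 ± 5.10 FPKM in knockout libraries, against 81.1 ± 4.92 FPKM in GFP-Rgnef libraries (limma adjusted p = 0.00804), and had a difference of 0.13 after removal of the chromosome median, against 0.42 before, without a call. Me1, the malic enzyme, also on chromosome 9, fell to 166.05 ± 6.04 FPKM in knockout libraries, against 219.2 ± 27.2 FPKM in GFP-Rgnef libraries (limma adjusted p = 0.0277). Its call was lost without knockout 1, knockout 2 or GFP-Rgnef 2. With chromosome medians removed its difference was -0.68, against -0.39 before (limma adjusted p = 0.00372). Acss2, which activates acetate, fell to 2.04 ± 0.0924 FPKM in knockout libraries, against 3.15 ± 0.337 FPKM in GFP-Rgnef libraries (limma adjusted p = 0.0298). It kept that call only when GFP-Rgnef 3 was the library left out. With chromosome medians removed its difference was -0.43, against -0.45 before, with limma adjusted p = 0.0501.

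Of 15 genes that use isoprenoids, 0 rose and 2 fell (13.3%), where 8.04% of all genes rose and 5.34% fell. At an unadjusted p below 0.05, 1 was higher and 4 were lower, where 14.9% and 13.5% of all genes were. The median was -0.06, against -0.04 over all genes outside chromosomes 7 and 9. Rabggtb, a subunit of the Rab geranylgeranyl transferase, had 68.02 ± 4.56 FPKM in knockout and 82.6 ± 4.41 FPKM in GFP-Rgnef libraries (limma adjusted p = 0.044). Coq2, of ubiquinone synthesis, had 59.3 ± 3.51 FPKM in knockout and 70.5 ± 2.33 FPKM in GFP-Rgnef libraries (limma adjusted p = 0.048). Rabggtb lost its call without any 1 of the 6 libraries, and Coq2 without any 1 other than knockout 3. With chromosome medians removed neither was called, with differences of -0.26 for Rabggtb and -0.21 for Coq2, against -0.28 and -0.25 before. Of 14 tested genes for SREBP cleavage and for the degradation of sterol enzymes, 1 fell (7.14%) and 0 rose, where 5.34% of all genes fell and 8.04% rose. At an unadjusted p below 0.05, 2 were higher and 1 was lower, where 14.9% and 13.5% of all genes were. The gene that fell was Vcp, an extraction ATPase, with 468.6 ± 29.3 FPKM in knockout and 570.4 ± 29.1 FPKM in GFP-Rgnef libraries (limma adjusted p = 0.0323). Its call was lost without knockout 2, knockout 3, GFP-Rgnef 1 or GFP-Rgnef 2. With chromosome medians removed its difference was -0.22, against -0.28 before, with limma adjusted p = 0.11.

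Among 18 tested genes for other sterol and lipid transport, 4 rose (22.2%) and 2 fell (11.1%), where 8.04% of all genes rose and 5.34% fell. The median was 0.05. The 4 were Scarb1, Osbpl5, Lipa and Stard5. Osbpl5 and Stard5 lie on chromosome 7, and 32.2% of all tested genes on chromosomes 7 and 9 rose. With chromosome medians removed Stard5 differed by 0.19 and was not called (limma adjusted p = 0.253). Lipa differed by 0.74 and was called (limma adjusted p = 0.00778). Scarb1, the receptor for high density lipoprotein, had 34.4, 32.5 and 32.9 FPKM in knockout libraries, against 23.9, 21.9 and 21.9 FPKM in GFP-Rgnef libraries. Its groups are well apart, with a difference of 0.54 (SE 0.070, limma adjusted p = 0.0032). Osbpl5, an oxysterol binding protein gene on chromosome 7, rose to 37.3 ± 1.73 FPKM in knockout libraries, against 24.7 ± 2.43 FPKM in GFP-Rgnef libraries (limma adjusted p = 0.00529). Abca7, a lipid transporter, fell to 5.27 ± 0.452 FPKM in knockout libraries, against 8.03 ± 0.247 FPKM in GFP-Rgnef libraries (limma adjusted p = 0.00864). Scarb1, Osbpl5 and Abca7 kept their calls with each library left out and with chromosome medians removed. With medians removed the difference of Osbpl5 was 0.33 (limma adjusted p = 0.0461), against 0.58 before.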

How the data were processed

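Per the labels' protocols, poly-T selected mRNA went into NEBNext Ultra libraries. The authors deposited 1 table of FPKM values for 6 libraries, and all its columns were used. The submitters' processing notes name CASAVA 1.8, TopHat2 2.0.9, DESeq2 and mm10. The step each tool served, the annotation and strand are not given in the sources used here. GENCODE mouse release M 21 (GRCm38, the assembly of mm10) gave symbols and coordinates for 34490 identifiers.

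The depth of each library was taken first, as the commonest value implied by low FPKM values and annotated exon lengths. With these depths whole reads (within 0.02) were recovered for 99.99% of the 19655 genes above 0. For 15426 genes this used the smallest length that gave whole reads in place of the annotated length. The lengths implied for the members were 783 to 5519 bases and often differed from the annotated exon length (for Scap 870 against 7443 bases). FPKM levels are therefore compared between libraries and not between genes, other than to pick the genes to print, and genes with few reads have a larger counting error.

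Differences are knockout minus GFP-Rgnef, fitted with limma 3.58.1 with trend (R 4.3.3) on log2(FPKM + 1), which understates changes of low genes. Genes with a mean of at least 0.5 FPKM were tested, with Benjamini-Hochberg adjustment over all of them and a call below 0.05. The script was tested on simulated data. Values in every library are given for called members and the 2 of each role with the highest mean FPKM, and from other lists up to 3 called genes with the smallest p are named. Mid1ip1, Lipa and Stard5 were named beyond that rule, after their values were seen. Members, lists and tests were chosen with earlier results of these data known. Library values of Msmo1, Insig1, Stard4 and Abca1, and the markers named, were chosen after their values were seen. Some other genes of the pathway are not reported here. The main fit did not pair samples by replicate number. Deviations of same-numbered libraries correlated at 0.32, -0.02 and 0.55 for numbers 1, 2 and 3, and those of knockout 1 and GFP-Rgnef 2 at 0.40. Whether the numbers mark a shared batch was not tested. Alternatives covered the pseudocount, filter, scaling, trend, replicate block, each library left out, voom on recovered reads, libraries 1 and 2, and chromosomes. Figures used Python 3.11.15 and matplotlib 3.10.9.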

Additional observations from a re-analysis of the deposited data

How the results depend on the processing

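The 30 tested members gave 504 comparisons with an alternative, of which 443 kept direction and side of the threshold, 35 lost a call, 11 gained one and 15 changed sign. Members higher in knockout libraries were 2 of 31 with no filter on low values, where 725 of 19655 genes were higher. They were 2 of 30 with chromosome medians removed (495 of 11500 genes) and 2 of 26 without chromosomes 7 and 9 (393 of 10042 genes). Of 30 members, 3 were higher without limma's trend (855 of 11500 genes) and 11 with libraries 1 and 2 (1273 of 11500 genes). The number was 9 with the replicate number as a block (1517 of 11500 genes) and 5 with median ratio scaling (928 of 11500 genes). With 1 library left out it was 1 to 6 (455 to 850 of 11500 genes). In every setting run 0 members were called lower. Over all genes 925 were higher and 614 lower, against 1517 and 1253 with the replicate block and 495 and 388 with chromosome medians removed. Without chromosomes 7 and 9, 393 were higher, 394 were lower with no filter, and 1048 were lower with libraries 1 and 2. With 1 library left out 455 to 850 were higher and 198 to 578 lower. The causes were not tested. The share of calls that were higher was 60.1%, and 45.5% without chromosomes 7 and 9.

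Members whose sign changed were not called in either fit. Nr1h2 was at -0.13 with chromosome medians removed, and Insig2 at 0.022 with libraries 1 and 2. With 1 library left out the range was -0.082 to 0.36 for Abca1, -0.012 to 0.19 for Fdft1, -0.15 to 0.10 for Ggps1, -0.016 to 0.17 for Hmgcs1, -0.18 to 0.059 for Soat1, -0.036 to 0.10 for Srebf2 and -0.081 to 0.31 for Tm7sf2. Under the replicate block, which the labels do not name and the main fit did not use, Hsd17b7, Insig1 and Stard4 were added to the 6 members. Counts were lowest for Mylip, with at most 1 read, Tm7sf2, with 10 to 32 reads, and Abca1, with 33 to 169 reads. The cause of the spread of Tm7sf2 and Abca1 was not tested.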
